A study of Mus musculus with 36 samples.

Results

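The ionotropic and metabotropic receptors for glutamate and GABA are built from a family of subunits, and 47 of the 24940 genes in the count table belong to it. They were taken by symbol, as the protein-coding genes whose names fit the Gria, Grik, Grin, Grid, Grm, Gabr and Gabbr series. By class these were 4 AMPA, 5 kainate, 7 NMDA, 2 delta and 8 metabotropic glutamate receptor genes. On the GABA side there were 6 alpha, 3 beta, 3 gamma and 3 rho subunits of the GABA-A receptor, 4 of its delta, epsilon, pi and theta kinds, and 2 GABA-B subunits.

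AMPA, kainate and NMDA receptors are cation channels opened by glutamate and carry most fast excitation in the brain, while metabotropic glutamate receptors act through G proteins. GABA-A receptors are chloride channels, commonly made of alpha, beta and gamma subunits. A delta subunit can take the place of gamma in receptors outside synapses. GABA-B receptors signal through G proteins as a pair of Gabbr1, which binds GABA, and Gabbr2, which carries the pair to the surface and couples it to the G protein. Which subunits a neuron makes sets the kinetics and the drug response of its synapses, and spiny projection neurons of the striatum differ in this from the pyramidal cells of cortex.

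Poly(A) RNA-seq covered 3 brain regions of male mice (cortex, corpus callosum, striatum) and sorted microglia. MSA mice are of the MBP29-hα-syn line, in which a myelin basic protein promoter drives human α-synuclein in oligodendrocytes, as a model of multiple system atrophy. Controls are called wild type in the protocol. The bulk tissue came from both genotypes on placebo chow or on chow with 1200 mg/kg of PLX5622, an inhibitor of the receptor CSF1R on which microglia depend. It was fed from 4 weeks of age for 12 weeks. Cortex had 3 libraries in each of the 4 groups of genotype and diet, 12 in all. Corpus callosum had 3 from placebo control mice and 2 in every other group, and striatum 3 from placebo MSA mice and 2 in every other group, so 9 each. The microglia were CD11b+CD45low cells from forebrain of untreated mice at 16 weeks, 3 libraries per genotype, in which the control libraries carry the tag MBP29_het and the MSA libraries MBP29_homo. Which libraries come from the same animal is not labelled, and the p-values measure only the spread between these libraries.

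Counts assigned to genes ran from 4.36 to 28.6 M per bulk library and from 5.95 to 12.1 M in microglia. The regions matched their labels by marker genes: of 12 genes of striatal projection neurons 12 were higher in striatum than in cortex, and of 10 oligodendrocyte genes 10 were higher in corpus callosum than in cortex. The corpus callosum libraries were not free of neurons, since 12 pan-neuronal genes summed to between 4564 and 8137 CPM there (counts scaled to 1e6 per library) against 7095 to 10417 in cortex. There were 3 libraries that stood apart in their markers, and results that turn on them are given with and without them. Control corpus callosum placebo 2 held Gabra6 at 12.4 CPM, control corpus callosum PLX5622 1 held Slc17a6, a glutamate transporter of vesicles, at 90.7 CPM, and MSA striatum placebo 1 had the lowest sum of projection neuron genes in striatum (9798 CPM). Gabra6 is itself a member of the family. Outside the family, Cbln3 (13.8 CPM) and Fat2 (10.3 CPM) were also highest among bulk libraries in control corpus callosum placebo 2. Markers of choroid plexus, the tissue of the ventricles that makes cerebrospinal fluid, also varied: 10 genes summed to 21.5 to 575 CPM in cortex, 43.1 to 3939 CPM in striatum and 255 to 8293 CPM in corpus callosum. The highest sums were in both MSA corpus callosum placebo libraries (8293 and 3218 CPM) and in MSA striatum placebo 3 (3939 CPM). A treatment tag of none sits on both control striatum PLX5622 libraries, against their titles, by which they were grouped. Csf1r was at 0.73 and 0 CPM in them.

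Levels were first compared between genes as TPM, which divides by transcript length. Grin1, the NMDA receptor subunit that every such receptor needs, had the highest mean in cortex at 219 TPM ± 88.0 (SD, n = 12). Gabbr1 followed at 189 TPM ± 46.7 (SD, n = 12) and Grik5, a kainate subunit that needs a partner to form a channel, at 179 TPM ± 47.3 (SD, n = 12). These 3 neighbours lay within 1 SD of each other. Gabbr2 came next at 110 TPM ± 51.7 (SD, n = 12). In striatum the same 3 genes led, with Grin1 at 312 TPM ± 106, Grik5 at 251 TPM ± 40.6 and Gabbr1 at 251 TPM ± 33.9 (SD, n = 9). TPM of Gria2 and Gria3 was computed by the authors on noncoding RefSeq transcripts of these genes, so their levels per length depend on that choice. At the other end Gabre, Gabrp, Gabrr1, Gabrr3 and Grm6 stayed under 1 CPM in every bulk library.

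Between regions, 42 of the 47 genes had enough counts to be tested over the 30 bulk libraries, and the 5 that did not were those last named. Striatum differed from cortex in most members: 17 were higher and 14 lower at an adjusted p under 0.05 (edgeR's quasi-likelihood test, Benjamini-Hochberg adjustment over all genes), 31 of 42. Of all 16080 genes tested 39.3% passed in either direction, 18.6% higher and 20.6% lower. The median size of change over the members, without sign, was 0.71 on the log2 scale against 0.39 over all genes. Of the members, 9 had no overlap between the striatal and the cortical libraries, where 7.74% of all genes had none. In bulk tissue, fewer cells of a type and less RNA per cell cannot be told apart. Beside these changes, 12 of 12 striatal projection neuron markers were higher and 11 of 12 markers of cortical glutamatergic neurons lower in striatum (summed CPM 1538 to 3154 against 2934 to 5613). Their part in the result was not tested.

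**Figure D1:**
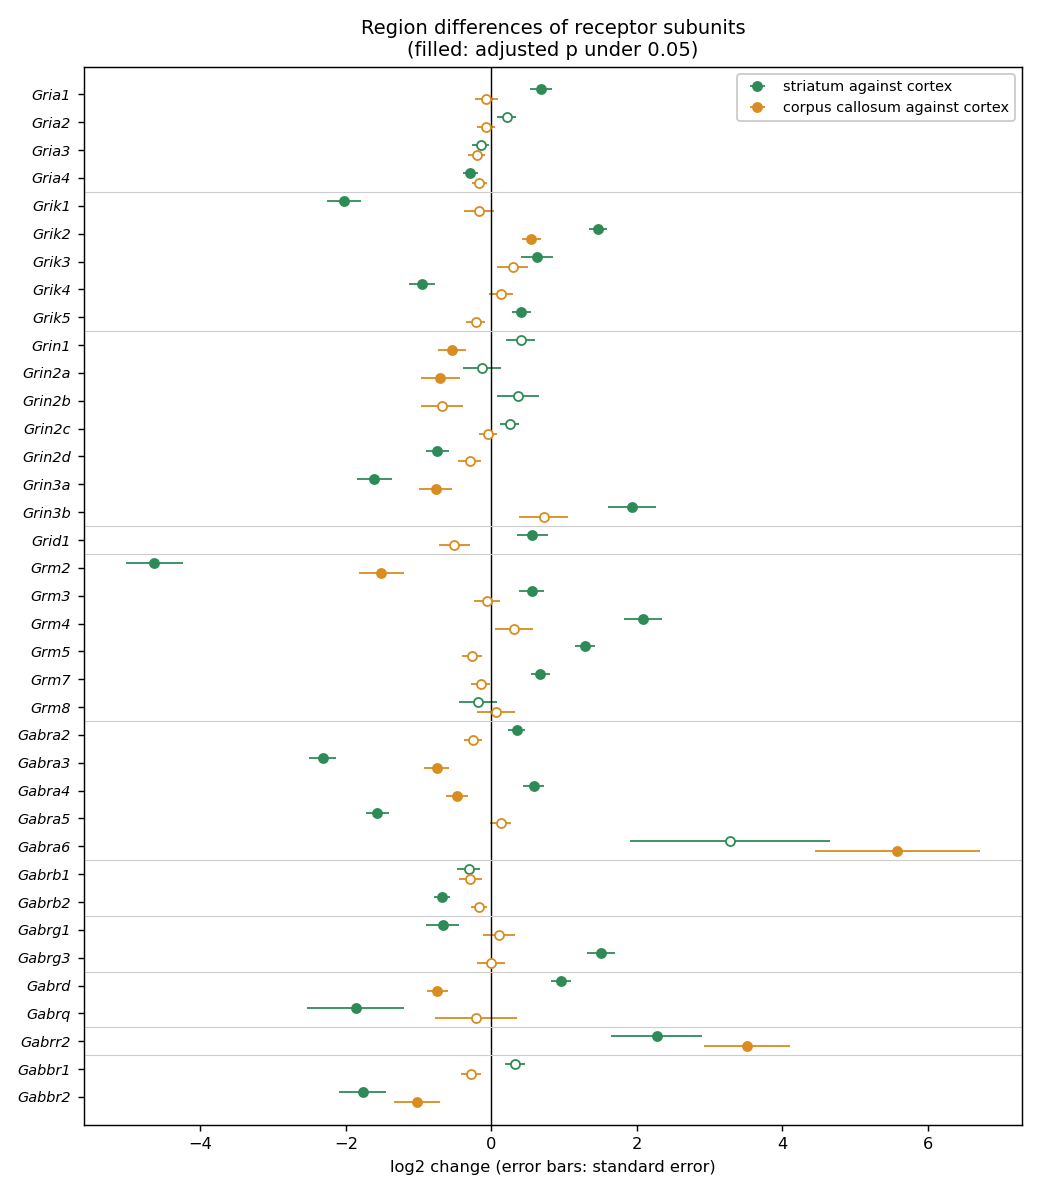
Log2 change of 37 receptor subunits, striatum against cortex in green and corpus callosum against cortex in orange, by class from AMPA at the top to GABA-B at the bottom; bars are standard errors of the fit and filled points passed an adjusted p of 0.05. Grm2 lies farthest to the left at -4.63, and Grm4 and Grik2 lie to the right at 2.09 and 1.47 in striatum.

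Members with large changes are shown here with the 250 bases upstream of their most upstream start in RefSeq (GRCm38.p6). The choice was among members called between striatum and cortex without overlap, with a mean log2 CPM of at least 2. They also needed an entry in the promoter table, which 32 of the 47 members had. Among these the 2 lower ones of largest change were Grm2 and Gabra3, and the higher one of largest change was Grik2. The lack of overlap in all 3 was thus a condition of the choice. Each is printed 5′ to 3′ on the strand of its gene, with CG dinucleotides in capitals. The positions are chr9:106656110-106656359 for Grm2, chrX:72656920-72657169 for Gabra3 and chr10:49788755-49789004 for Grik2, all on the minus strand.
Grm2: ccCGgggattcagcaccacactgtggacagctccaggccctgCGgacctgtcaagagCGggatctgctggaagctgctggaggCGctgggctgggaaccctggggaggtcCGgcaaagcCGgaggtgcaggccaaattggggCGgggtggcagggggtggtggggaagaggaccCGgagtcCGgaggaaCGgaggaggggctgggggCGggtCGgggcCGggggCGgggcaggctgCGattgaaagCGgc
Gabra3: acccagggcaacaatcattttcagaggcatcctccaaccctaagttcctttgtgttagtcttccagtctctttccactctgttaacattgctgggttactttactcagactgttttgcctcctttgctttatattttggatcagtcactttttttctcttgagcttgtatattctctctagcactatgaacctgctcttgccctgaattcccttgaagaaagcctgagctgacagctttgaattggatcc
Grik2: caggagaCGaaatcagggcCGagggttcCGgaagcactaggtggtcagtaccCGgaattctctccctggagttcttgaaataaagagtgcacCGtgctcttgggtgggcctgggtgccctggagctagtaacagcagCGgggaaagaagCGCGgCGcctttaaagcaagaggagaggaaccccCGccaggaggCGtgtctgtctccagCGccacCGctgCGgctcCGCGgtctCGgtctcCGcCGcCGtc

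The Grm2 stretch is 71.2% G and C and holds 16 CG dinucleotides, and the Grik2 stretch is 62.8% with 20. The Gabra3 stretch, from a gene with 2 start sites, is 42.4% and holds none. The letters GGGCGG, searched on both strands, occur 3 times in Grm2 and in neither of the others. Over 32851 promoters of the table the median content of G and C was 52.4%, 7.9% had no CG and 32.7% held GGGCGG. Over the 32 members these were 61.6%, 3.1% and 53.1%. Grm2 and Gabra3 were both lower in striatum and differ in base composition here. A match of these letters is a description and not a binding site.

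Among metabotropic glutamate receptors Grm2, a presynaptic receptor that limits glutamate release, ran from 19.3 to 116 CPM in cortex (median 66.2) and from 0 to 6.02 CPM in striatum (median 2.04). The lowest cortical library was above the highest striatal one. Its change was -4.63 ± 0.39 (log2 ± SE, adjusted p 2.8e-09 by edgeR). Grm4, a presynaptic receptor of the same broad kind, went the other way, from 6.32 to 48.8 CPM in cortex (median 35.4) and from 80.2 to 194 CPM in striatum (median 145), a change of 2.09 ± 0.26 (adjusted p 1.0e-06 by edgeR). Grm5, which sits postsynaptically and couples to calcium release, was at 115 to 237 CPM in cortex (median 179) and 254 to 622 CPM in striatum (median 444), a change of 1.29 ± 0.14 (adjusted p 5.5e-08 by edgeR). The balance between them differed as well: Grm2 made up 19.2% of the TPM of the metabotropic class in cortex and 0.644% in striatum, and Grm4 8.78% and 22.5%. Also called higher were Grm3, the close relative of Grm2 that astrocytes also make (79.5 CPM ± 18.2 in cortex and 117 CPM ± 23.2 in striatum, SD, n = 12 and 9), and the presynaptic receptor Grm7 (39.6 to 91.3 CPM in cortex and 66.5 to 111 CPM in striatum). Grm8 was not called, at 8.74 CPM ± 3.14 in cortex and 8.18 CPM ± 4.02 in striatum.

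Kainate receptor subunits split within the class. Grik2, a main channel-forming subunit, ran from 40.5 to 63.5 CPM in cortex (median 50.4) and from 88.9 to 175 CPM in striatum (median 146), a change of 1.47 ± 0.13 (adjusted p 1.8e-09 by edgeR). Grik1, an alternative channel-forming subunit, was at 7.09 to 15.1 CPM in cortex (median 12.2) and 0 to 5.95 CPM in striatum (median 3.78), a change of -2.02 ± 0.23 (adjusted p 1.4e-07 by edgeR). Neither gene's libraries overlapped between these regions. Grik3 was called higher, at 99.4 CPM ± 33.9 in cortex and 155 CPM ± 19.9 in striatum (SD, n = 12 and 9). Grik5 was too (498 CPM ± 102 in cortex and 667 CPM ± 115 in striatum), and Grik4, which like Grik5 needs a partner, was called lower (23.5 CPM ± 7.84 in cortex and 12.6 CPM ± 3.59 in striatum). Grik5 held 83.0% of the kainate TPM in cortex and 82.7% in striatum.

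No AMPA, NMDA or delta receptor subunit separated striatum from cortex without overlap. Gria1 had a mean of 268 CPM ± 56.8 in cortex (SD, n = 12) and 429 CPM ± 76.1 in striatum (SD, n = 9), with overlapping libraries and a change of 0.68 ± 0.15 (adjusted p 9.96e-04 by edgeR). Gria2, the subunit that keeps calcium out of AMPA receptors, had means of 530 and 611 CPM and was not called (0.21 ± 0.13, adjusted p 0.197 by edgeR). Gria4 was called lower, at 82.1 CPM ± 9.22 in cortex and 68.8 CPM ± 12.4 in striatum (SD, n = 12 and 9), and Gria3 was not called (190.1 CPM ± 30.5 in cortex and 176 CPM ± 28.8 in striatum). Of the NMDA subunits Grin1 (0.40 ± 0.20, adjusted p 0.108), Grin2a (-0.13 ± 0.26, adjusted p 0.732) and Grin2b (0.37 ± 0.29, adjusted p 0.328) missed the edgeR threshold. Grin2c, which astrocytes also make, was not called (123 CPM ± 29.5 in cortex and 147 CPM ± 17.3 in striatum). Grin2d (47.5 CPM ± 13.0 in cortex and 30.1 CPM ± 10.7 in striatum) and Grin3a (49.8 CPM ± 17.3 in cortex and 17.7 CPM ± 5.99 in striatum) were called lower. Grin3b was called higher, at 1.93 to 6.38 CPM in striatum and 0 to 2.25 CPM in cortex. The delta receptor gene Grid1 was called higher, at 58.2 CPM ± 16.8 in cortex and 86.5 CPM ± 20.8 in striatum.

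**Figure D2:**
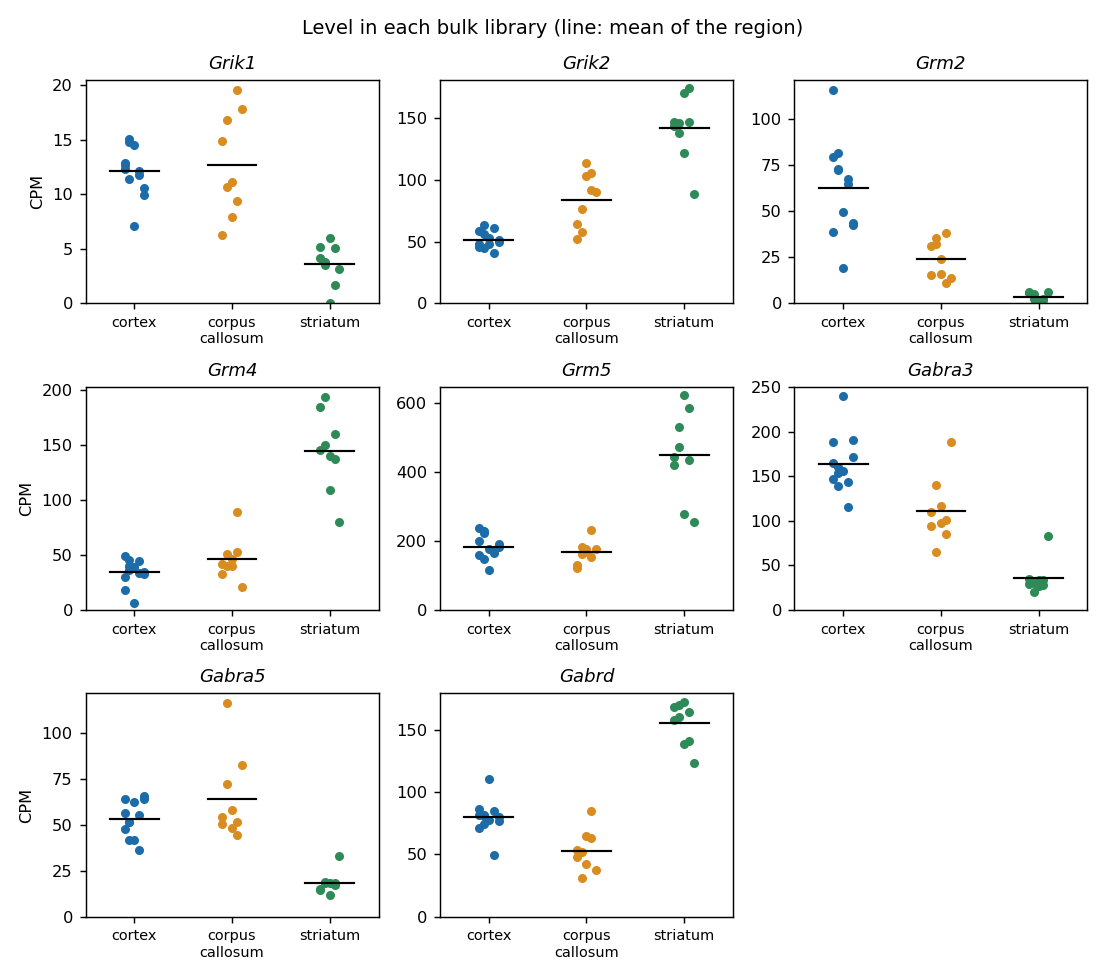
CPM of 8 subunits whose striatal and cortical libraries do not overlap, 1 point per bulk library with a line at the mean of the region. Grik1, Grm2, Gabra3 and Gabra5 lie lower in striatum than in every cortical library, and Grik2, Grm4, Grm5 and Gabrd lie higher.

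On the GABA-A side, the alpha subunits Gabra3 and Gabra5 fell in striatum without overlap. Gabra3 ran from 116 to 240 CPM in cortex (median 159) and from 20.6 to 83.2 CPM in striatum (median 30.4), a change of -2.32 ± 0.19 (adjusted p 5.1e-10 by edgeR). Gabra5, a subunit of receptors outside synapses in much of the forebrain, was at 36.2 to 65.9 CPM in cortex (median 53.5) and 12.0 to 33.2 CPM in striatum (median 18.2), a change of -1.57 ± 0.16 (adjusted p 1.6e-08 by edgeR). Gabra2 was called higher, at 82.8 CPM ± 14.2 in cortex and 105 CPM ± 16.0 in striatum (SD, n = 12 and 9), and so was Gabra4, at 129 CPM ± 39.9 in cortex and 190.0 CPM ± 30.3 in striatum. The alpha class as a whole summed to 269 TPM ± 32.5 in cortex and 185 TPM ± 24.8 in striatum; this sum was not tested. Gabrd, which in extrasynaptic receptors often pairs with Gabra4, ran from 49.8 to 110 CPM in cortex (median 80.7) and from 123 to 172 CPM in striatum (median 160), a change of 0.96 ± 0.14 (adjusted p 5.9e-06 by edgeR). Gabrb2, a beta subunit, was lower with overlapping libraries (-0.68 ± 0.12, adjusted p 4.4e-05 by edgeR). Gabrg3 was called higher, at 4.83 CPM ± 1.71 in cortex and 13.5 CPM ± 3.63 in striatum, and Gabrg1 lower, at 33.8 CPM ± 13.4 in cortex and 21.7 CPM ± 9.48 in striatum (SD, n = 12 and 9). Gabrb1 (34.9 CPM ± 8.11 in cortex and 28.3 CPM ± 5.39 in striatum) was not called. Gabrq, lower, and Gabrr2, higher, had means under 2 CPM in both regions, and Gabra6 was not called. The call of Gabrq held in 22 of 30 fits with 1 library left out. Its change turned to 0.27 between the placebo control groups, in the fit of all bulk libraries, where it was not called.

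Put as shares of the alpha TPM, Gabra3 made up 22.2% in cortex and 7.34% in striatum. Gabra4 made up 15.3% and 35.5%, and Gabra2 17.7% and 34.5%. None of these 3 shares overlapped between cortical and striatal libraries. Gabrg3 made up 6.38% of the gamma TPM in cortex and 25.8% in striatum, also without overlap. Of 33 such shares, 11 did not overlap between striatum and cortex, 5 higher and 6 lower, and 0 between corpus callosum and cortex. Shares are descriptions and were not tested.

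**Figure D3:**
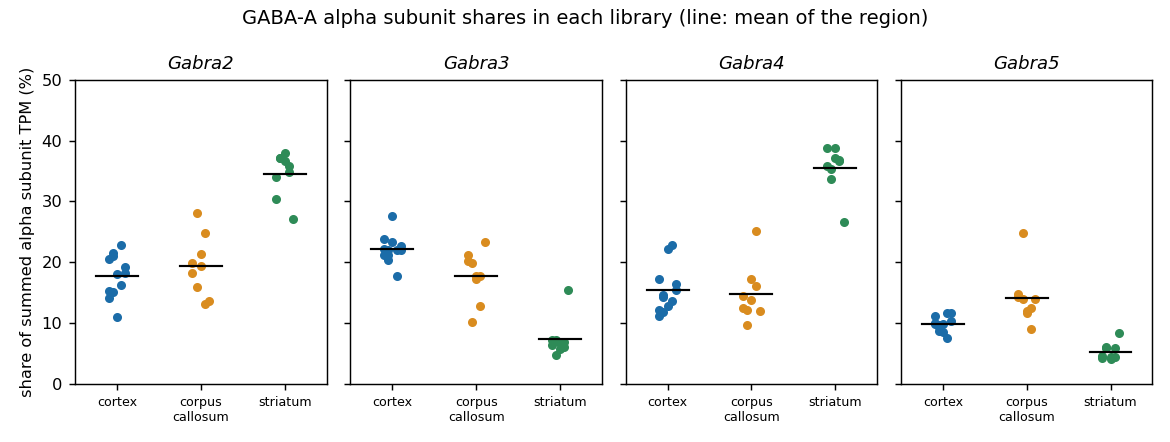
Share of Gabra2, Gabra3, Gabra4 and Gabra5 in the summed alpha TPM in percent, 1 point per bulk library by region, with a line at the mean of the region. Gabra3 averages 22.2% in cortex and 7.34% in striatum, and Gabra4 15.3% and 35.5%.

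Of the GABA-B pair, Gabbr2 was lower in striatum and Gabbr1 was not called. Gabbr1 ran from 365 to 704 CPM in cortex (median 659) and from 622 to 876 CPM in striatum (median 779), and missed the threshold (0.33 ± 0.14, adjusted p 0.0606 by edgeR). Gabbr2 ran from 57.2 to 482 CPM in cortex (median 312) and from 51.2 to 159 CPM in striatum (median 98.8), a change of -1.77 ± 0.32 (adjusted p 1.35e-04 by edgeR) with overlap. Per 100 TPM of Gabbr1 there were 54.8 TPM of Gabbr2 in cortex (17.6 to 80.5), 32.4 in corpus callosum (15.8 to 51.0) and 14.4 in striatum (9.23 to 21.4). The lowest cortical Gabbr2, 57.2 CPM, was in control cortex placebo 3, where 60.1% of reads were assigned to genes.

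Corpus callosum against cortex gave 3 members higher and 11 lower of 42, where 15.9% and 14.1% of all genes were (30.0% either way). No member separated the 2 regions without overlap, where 3.10% of all genes did. The median change was -0.19 over the members and 0.00 over all genes, and all 12 pan-neuronal markers were lower in corpus callosum (median -0.71). The part of those markers was not tested. Among the members lower by edgeR were Grin1 (-0.54 ± 0.20, adjusted p 0.0416), Grin2a (-0.71 ± 0.27, adjusted p 0.0490) and Gabbr2 (-1.02 ± 0.31, adjusted p 0.0168). Gria1 (-0.07 ± 0.16, adjusted p 0.779), Gria2 (-0.07 ± 0.13, adjusted p 0.708), Grin2b (-0.68 ± 0.29, adjusted p 0.0833), Grm5 (-0.26 ± 0.14, adjusted p 0.164), Gabrb2 (-0.17 ± 0.11, adjusted p 0.269) and Gabbr1 (-0.28 ± 0.14, adjusted p 0.126) were not called. The mean CPM of Gria1 and Gria2 was slightly higher in corpus callosum than in cortex. For Gria1 the median was lower there (253 against 271 CPM), and MSA corpus callosum placebo 2 reached 590 CPM. CPM is not scaled by TMM, and the fit is. The part of either in the difference from the fit was not tested. By smallest p the leading members were Gabrr2, a rho subunit (0 to 1.15 CPM in cortex, 0.41 to 7.57 CPM in corpus callosum, 3.51 ± 0.59, adjusted p 8.0e-05 by edgeR), and Gabrd (medians 80.7 and 52.0 CPM, -0.74 ± 0.15, adjusted p 4.6e-04 by edgeR). Grik2 and Gabra6 were the other members called higher, and the call of Gabra6 was lost without MSA corpus callosum placebo 1 (adjusted p 0.9999 by edgeR). With the log2 sum of the choroid plexus markers as a covariate, chosen after seeing the data, 2 of the 14 members stayed called, Gabrr2 and Gabrd. That sum itself differs between the regions, so the region and the markers are only partly told apart in this fit.

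Striatum against corpus callosum gave 19 members higher and 12 lower of 42 (12.9% and 17.4% of all genes, 30.3% either way), and 8 without overlap (6.39% of all genes). Lower among these were Grm2 (-3.12 ± 0.38), Grik1 (-1.85 ± 0.24), Gabra5 (-1.70 ± 0.17) and Grik4 (-1.09 ± 0.19). Higher among them were Gabrd (1.70 ± 0.16), Grm5 (1.55 ± 0.15) and Gabrg3 (1.51 ± 0.21). Here Grin1 (0.94 ± 0.21, adjusted p 0.0015) and Grin2b (1.05 ± 0.31, adjusted p 0.014) were higher by edgeR, and so were Gabbr1 (0.61 ± 0.15, adjusted p 0.0028) and Gria1 (0.75 ± 0.17, adjusted p 0.0014). Gabrb2 (-0.51 ± 0.12, adjusted p 0.0028) was lower by edgeR. Gria2 (0.28 ± 0.14, adjusted p 0.121), Grin2a (0.58 ± 0.28, adjusted p 0.129) and Gabbr2 (-0.75 ± 0.33, adjusted p 0.0899) were not called. Between the placebo control groups, in the fit of all bulk libraries, 12 members passed for striatum against cortex. For striatum against corpus callosum 13 passed, and 0 for corpus callosum against cortex. All 12 and 13 were among those called over the 4 groups. The share of all genes passing in this setting was not counted. Counted by mean CPM over all 47, the highest region was striatum for 23, cortex for 12 and corpus callosum for 12. This includes the 5 members too low to test, and the same count over all genes was not made.

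Genes that work with these receptors were counted from lists, to be read against 18.6% of all genes higher and 20.6% lower in striatum than in cortex. For striatum against cortex, 6 of 10 GABA receptor partners were higher and none lower, among them Kctd8 (1.76 ± 0.17), a subunit that shapes GABA-B signals. Of 7 kainate and delta receptor partners, Neto2 (1.48 ± 0.10) and Neto1 (1.15 ± 0.09), auxiliary subunits of kainate receptors, were higher and 5 lower, among them Cbln4 (-3.44 ± 0.29), a secreted synaptic organiser. Of 15 AMPA receptor auxiliary proteins 4 were higher, led by Cacng4 (2.51 ± 0.15), and 6 lower, led by Cnih3 (-3.09 ± 0.27). Of 20 scaffold genes 4 were higher, such as Shank3 (1.09 ± 0.17), and 6 lower, close to the shares of all genes. Of 15 genes of glutamate and GABA synthesis and transport 5 were higher and 7 lower, among the latter Slc17a7 (-4.28 ± 0.44), the vesicular glutamate transporter of cortical pyramidal cells. For corpus callosum against cortex 12 of 20 scaffold genes and 7 of 15 AMPA auxiliary genes were lower, with 1 higher in each list, where 14.1% of all genes were lower and 15.9% higher.

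Within a region the spread between libraries was wide. Over the members with a mean of at least 10 CPM, the coefficient of variation had a median of 22.9% in cortex (35 members), 28.6% in corpus callosum (36 members) and 20.1% in striatum (35 members). The lowest values often came from 1 library: control cortex placebo 3 was lowest for 20 of 35 members and MSA striatum PLX5622 2 for 18 of 35, with 60.1% and 65.5% of reads assigned. Control corpus callosum PLX5622 1 was highest for 14 of 36. In cortex Grin2b was the most variable such member and Gria4 the least, at 47.9% and 11.2%.

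The question of diet was whether removing microglia changed receptor mRNA. Csf1r was at 0 to 1.44 CPM in control mice on PLX5622 and 13.1 to 38.9 CPM in MSA mice on it. Across 15 tests of diet, genotype and their interaction within regions, no member passed edgeR's threshold; 40 members were tested in cortex, 42 in corpus callosum and 41 in striatum. The shares of all genes called were 0.486%, 0.0548%, 0.00%, 0.151% and 0.0959% in cortex for PLX5622 in control, PLX5622 in MSA, MSA on placebo, MSA on PLX5622 and the interaction. In corpus callosum they were 0.460%, 0.0693%, 0.321%, 0.195% and 0.264%, and in striatum 0.336%, 0.0740%, 0.0336%, 0.222% and 0.0874%. At an unadjusted p under 0.05, by that order, cortex had 1, 3, 1, 0 and 0 members. Of all genes 2.86%, 4.42%, 3.52%, 2.82% and 3.77% reached it there. Corpus callosum had 1, 2, 6, 7 and 3 members, against 3.91%, 8.48%, 8.53%, 4.46% and 4.7% of all genes. Striatum had 0, 9, 1, 6 and 2 members, against 2.25%, 13.8%, 3.75%, 11% and 5% of all genes. DESeq2 called 1 member in 1 of the 15 tests, and the share of all genes it called was not counted. The median standard error was 0.28 to 0.49 on the log2 scale. A fitted change of -2.61 for Grik1 (MSA against control on PLX5622 in striatum, adjusted p 0.440 by edgeR) missed the threshold, so the tests leave room for member changes well beyond the size of 1 standard error.

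The member closest to the threshold was Gabbr2 in MSA striatum. It was at 123, 159 and 120 CPM on placebo and at 51.2 and 64.7 CPM on PLX5622, without overlap (26.9% of all genes had none here), a change of -1.19 ± 0.23 (adjusted p 0.1001 by edgeR). DESeq2 called it (adjusted p 4.4e-04). Choroid plexus markers summed to 68.6, 471 and 3939 CPM in the placebo libraries, in the same order, and 531 and 43.1 CPM on PLX5622. In control striatum it was at 112 and 86.8 CPM on placebo and 78.1 and 98.8 CPM on PLX5622, and the difference between the genotypes was -1.05 ± 0.33 (adjusted p 0.802 by edgeR). Averaged over regions and genotypes, diet called 0 of 42 members, where 2.15% of all genes were called. The closest were Gabra4 (0.32 ± 0.13, adjusted p 0.270) and Grm2 (-0.68 ± 0.28, adjusted p 0.330), both by edgeR. Among the lists of partners, Kctd12 was lower on PLX5622 averaged over regions (-0.55 ± 0.13, adjusted p 0.0139 by edgeR). Its list, the 10 GABA receptor partners, summed to 2768 to 3187 CPM in sorted microglia and 1136 to 2107 CPM in cortex. The part of the loss of microglia in the fall of Kctd12 was not tested.

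The genotype averaged over regions called 1 member, Grik1, lower in MSA mice with a change of -0.72 ± 0.18 (adjusted p 0.0425 by edgeR); of all genes 1.49% were called and 0.336% lower. In corpus callosum Grik1 ran from 11.1 to 19.5 CPM in 5 control libraries and from 6.29 to 10.7 CPM in 4 MSA libraries, without overlap. The share of all genes without overlap in this split was not counted, and Grik1 was split by region because it had been called. In striatum it was at 3.46 to 5.95 CPM in 4 control and 0 to 4.16 CPM in 5 MSA libraries. In cortex the order was the other way, 7.09 to 12.6 CPM in control and 10.6 to 15.1 CPM in MSA libraries, with overlap. Choroid plexus markers in corpus callosum summed to 3218 and 8293 CPM in MSA mice on placebo against 255 to 351 CPM in control mice on it, and to 412 and 466 CPM in MSA mice on PLX5622 against 1408 and 1511 CPM in control mice on it. Grik1 in corpus callosum was lower in MSA libraries on either diet, at 7.94 and 9.36 CPM against 17.9 and 19.5 CPM on PLX5622. The part of the choroid plexus markers in this difference was not tested. With the log2 sum of these markers as a covariate over all bulk libraries the averaged change was -0.69 ± 0.19. It missed the threshold (adjusted p 0.0736 by edgeR). The difference of the genotype effect from that in cortex was -1.66 ± 0.45 for striatum (adjusted p 0.723 by edgeR) and -1.23 ± 0.41 for corpus callosum (adjusted p near 1). No member passed for either, and 0.00622% and 0.00% of all genes did. Without MSA striatum PLX5622 3 the averaged change of Grik1 was -1.74, and that group then had 1 library, at 0 counts of Grik1. The call held in 6 of 30 fits with 1 library left out, that fit among them. It was lost without the 2 control striatum PLX5622 libraries of contrary tag (adjusted p 0.842 by edgeR) and without the 3 libraries of odd markers (adjusted p 0.146 by edgeR). The call was also lost in the fit with the replicate block, an alternative listed under the processing. Grik1 is a low member, with 0 to 57 counts in a striatal library.

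**Figure D4:**
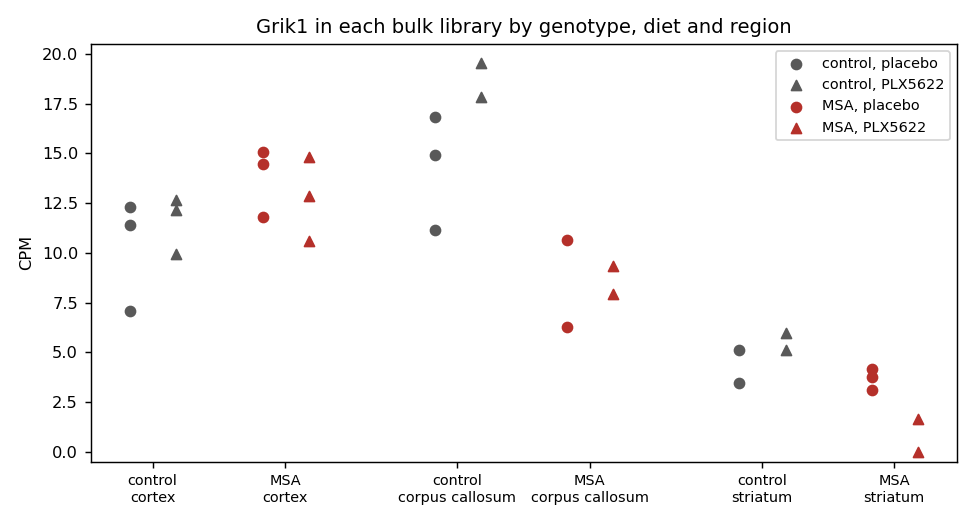
Grik1 in CPM in each bulk library by region and genotype. Circles are placebo and triangles PLX5622. Corpus callosum libraries do not overlap between genotypes (11.1 to 19.5 against 6.29 to 10.7 CPM), and those of cortex and striatum overlap. The share of all genes without overlap in this split was not counted.

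Sorted microglia held few receptor subunits. The 12 microglial markers summed to between 56162 and 60414 CPM and the 12 pan-neuronal ones to between 9.83 and 18.1 CPM. Other markers were present too: 10 choroid plexus genes summed to 535 to 1653 CPM. The 10 astrocyte genes summed to 178 to 237 CPM and the 10 oligodendrocyte genes to 116 to 185 CPM. The part of other cells in the low levels below was not tested. Gabbr1 was the only member at 100 CPM or more, at 126, 176 and 161 CPM in control and 136, 127 and 116 CPM in MSA libraries. Its change of -0.33 ± 0.12 was not called (adjusted p 0.402 by edgeR), and none of the 4 members tested was, where 0.610% of all genes were called. Without control microglia 1 the change of Gabbr1 was -0.45 ± 0.09 (adjusted p 0.0325 by edgeR). Gabbr2, its obligate partner in neurons, was at 0.113 to 0.536 CPM, or 0.251 TPM per 100 of Gabbr1. Grik5 was next at 5.09 to 6.92 CPM. Grin3b (mean 3.26 CPM), Grm3 (1.47), Grid1 (1.11) and Grin2d (1.04) had means of 1 to 5 CPM, and 36 members were under 1 CPM. Grin2a, Grm2, Gabrg3, Gabrr1 and Gabrr3 had 0 counts in all 6 libraries, which allows up to 0.0603 CPM over the 6 together (3 counts, counting error only). Among partner genes Cacng8 was lower in MSA microglia (-1.38 ± 0.24, adjusted p 0.0306 by edgeR).

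**Figure D5:**
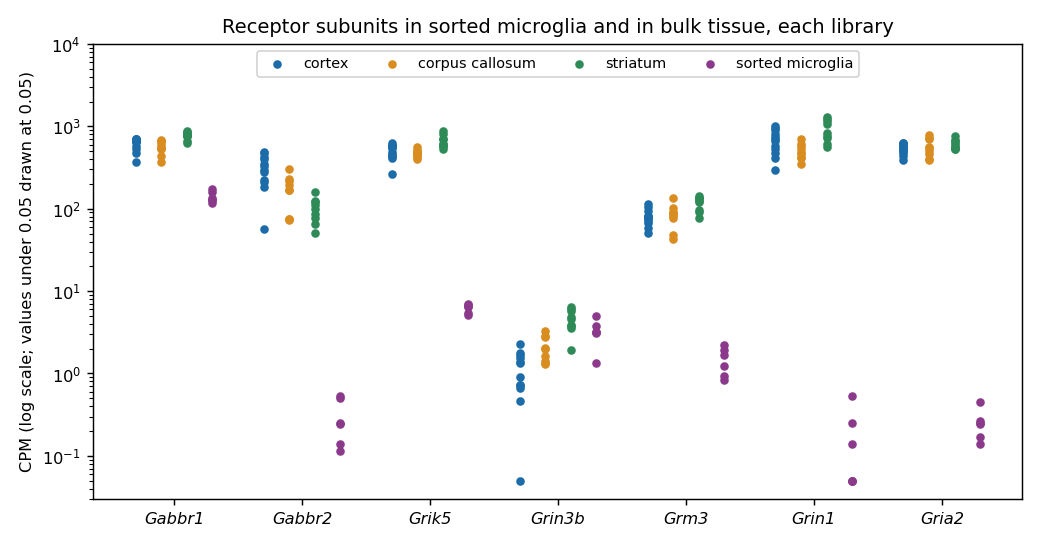
CPM of 7 subunits in cortex, corpus callosum, striatum and sorted microglia, 1 point per library on a log axis with values under 0.05 drawn at 0.05. Gabbr1 alone stays above 100 CPM in microglia, and Grin3b runs from 1.34 to 5.04 CPM in microglia and from 1.93 to 6.38 CPM in striatum.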

How the data were processed

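The series holds 36 mouse poly(A) libraries, 30 of bulk tissue and 6 of sorted microglia. The authors deposited whole-number counts per gene, not normalised, and a table of TPM for the same genes and libraries. The build was mm10, and the tools named were HOMER, STAR and DESeq2, per the submitters' processing notes. Neither the tool versions nor the strand setting of the counting is known (not given in the sources used here). As a share of each header total, counts assigned to genes were lowest at 59.5% (corpus callosum) and highest at 84.5% (cortex). In striatum they ran between 65.5% and 76.9%, and in microglia between 72.3% and 74.7%.

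Libraries were grouped by title. Each region was fitted with its 4 groups, microglia alone, and region differences and averages on all 30 bulk libraries. After filterByExpr at a minimum count of 10 and TMM scaling, tests were 2-sided, using the robust quasi-likelihood test of edgeR 4.0.16 (limma 3.58.1, R 4.3.3), with Benjamini-Hochberg adjustment over all genes kept and a threshold of 0.05. The tests were tested on simulated data. CPM is the count scaled to 1e6 assigned, and levels between genes were compared as TPM.

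The members and lists were chosen with earlier results of these data known. Test values are given for 11 core subunits, for all members past the threshold where there were up to 10, and otherwise for up to 6 each way of largest fold among those without overlap whose mean log2 CPM reached 2, or the 2 of smallest p. Partner genes named are up to 3 each way of smallest p. Alternatives were RLE scaling, DESeq2 1.42.0, no low-count filter, each library left out, 2 groups alone and the replicate block. Others were dropping both control striatum PLX5622 libraries, and comparing placebo controls only, within the fit of all bulk libraries. Added after seeing the data were dropping libraries under 70% assigned or the 3 that stand apart, and a covariate of the assigned share or of the log2 choroid plexus marker sum. Sequences are from RefSeq. Some members and partner genes counted here are not reported by name.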

Additional observations from a re-analysis of the deposited data

How the results depend on the processing

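The regional counts held under RLE scaling, DESeq2, no low-count filter and the replicate block (14, 28 and 30 called for corpus callosum against cortex, striatum against cortex and striatum against corpus callosum). With each library left out they ranged from 9 to 18, 25 to 33 and 27 to 32; the 9 arose without control PLX5622 2, MSA placebo 1 or MSA PLX5622 1 of corpus callosum. All 31 calls of each striatal comparison, and the 14 of the other, kept their direction in every such fit. With choroid plexus markers as covariate they were 2, 30 and 27, and Gabrb2 in corpus callosum against cortex turned to 0.034. With placebo control groups only they were 0, 12 (6 higher) and 13 (8 higher). Under these settings the log2 change of Gria2 in corpus callosum against cortex turned to 0.0031 with placebo controls only, 0.0023 without the 3 libraries that stand apart and ranged from -0.18 to 0.0099 with 1 library out. That of Gria1 turned to 0.11 with the assigned share as covariate and ranged from -0.25 to 0.052 with 1 library out. In striatum against cortex Gabrq turned to 0.27 and Grin2a to 0.24 with placebo controls only, and Grin2a to 0.072 with the assigned share and from -0.22 to 0.035 with 1 library out.

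For PLX5622 in MSA striatum, where the count was 0, DESeq2 gave 1 and no low-count filter 1 (both Gabbr2), the replicate block 3 (Gabbr2, Grin1, Gabrg1) and single libraries left out 0 to 3, the 3 without MSA placebo 1. For MSA against control on PLX5622 in striatum the replicate block gave 6. The share of all genes passing was not counted under any alternative setting, so these counts have no background beside them. In corpus callosum, leaving out libraries of low assignment gave 2 for PLX5622 in control mice and 1 for the interaction, and the 2 groups alone gave 1 for MSA on placebo (Grin2b); single libraries left out gave 0 to 1 for PLX5622 in control and for MSA on PLX5622, and 0 to 2 for the interaction, each highest without control PLX5622 2. For genotype averaged over regions the count was 0 with the replicate block and 0 with choroid plexus markers as covariate. It was 0 without the 2 striatum libraries and 0 without the 3 that stand apart. With the assigned share it was 2, and with 1 library out 0 to 1. For diet averaged it was 1 without libraries of low assignment (Gabra4) and 0 to 1 with 1 library out (control cortex placebo 3, Gabra4, or MSA striatum PLX5622 3, Grik1). It was also 0 to 1 for microglia (without control 1, Gabbr1) and for the genotype effect in striatum against cortex (without MSA striatum PLX5622 3, Grik1). Without MSA striatum PLX5622 3 its group had 1 library left, at 0 counts of Grik1. Elsewhere leaving out a library gave 0. The cause was not tested.

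Same-numbered libraries were not taken as pairs, because not every such pair deviated together. Over all bulk libraries 13 of 25 pairs correlated above 0.1 (median r 0.14, other pairs -0.014), and 5 of 29 libraries correlated best with their own number. In striatum, where the block moved the counts, 7 of 10 pairs did (median 0.24, other pairs -0.16) and 5 of 9 libraries correlated best with their own number, a hint of pairing from the data alone. Depth limits the low members: Grik1 rested on 0 to 57 counts per striatal library.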
